A study of Mus musculus with 29 samples.

Results

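Matrix metalloproteases, ADAMTS proteases and their TIMP inhibitors were followed in bladder urothelium and bladder tumors of mice with an activated form of Pparg. The genes were taken by symbol from each table of normalized counts, as every symbol that starts with Mmp and a digit, every Adamts symbol followed by digits alone, and Timp1 to Timp4. The rule used no measured value and gave 46 of the 35199 symbols, namely 23 Mmp genes, 19 Adamts genes and 4 Timp genes.

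Matrix metalloproteases are zinc enzymes that are made as inactive precursors and cut collagens, basement membrane proteins, growth factors and other proteases. Collagenases cleave fibrillar collagen, gelatinases degrade its denatured form, stromelysins and matrilysin cut a broad range of matrix proteins, and membrane-type enzymes act at the cell surface. ADAMTS proteases are secreted enzymes that trim procollagens or cleave proteoglycans such as versican, and TIMPs bind and block the active site of most of these enzymes. In the bladder they are known for their part in the breakdown of basement membrane and stroma by invading carcinoma.

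RNA-seq libraries were made from mouse bladder, with 29 samples in all. Gfp-sorted basal urothelial cells were collected 4 days after tamoxifen from 4 controls, labelled wild type, and from 5 mutants, labelled K5VP16;Pparg+/-, none of which had received the bladder carcinogen BBN (N-butyl-N-(4-hydroxybutyl)-nitrosamine). Laser-captured cells came from mice with 5 months of BBN that were collected 4 months after tamoxifen by the titles and the study's methods, as 3 basal tumors of mice labelled wild type, which the study describes as K5;mTmG or VP16;Pparg fl/fl controls, and, from K5VP16;Pparg+/- mice, 3 luminal tumors, 3 luminal domains (Top in their titles) and 3 basal-like domains (Bottom in their titles). In the mutants Cre expressed from Krt5 switches on a fusion of VP16 and Pparg at the Rosa26 locus. Only cells in which this Cre acted, and their descendants, express the fusion, and by the study's account not every basal cell recombined. The sorted controls carry the same Cre with the mTmG reporter by the study's methods. No label ties columns to groups in the table of 4 untreated libraries and 4 with 1 month of BBN, which was set aside. Libraries are numbered here by column order, which is not the replicate number of the labels, and since the labels do not say that samples of a group came from separate animals, p-values measure only the spread between these samples.

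Each table was normalized on its own, so values were compared within a table, and how many reads stand behind a value is unknown. Normalized counts summed to between 36520200 and 41435700 per library at 4 days and to between 41697200 and 53904700 in the tumor and domain tables. Fabp4, a direct target of Pparg, was at 207 to 467 normalized counts in controls and at 4969 to 30598 in mutants. The Pparg value was at 9381 to 9999 in controls and lower in every mutant, at 6111 to 9032. Here and in the tumors that value does not tell transcripts of the fusion from those of the endogenous gene. In the tumors Pparg was at 13.0 to 126 in basal and at 3579 to 8632 in luminal tumors, and Fabp4 overlapped, with 48304 in basal tumor 3 and 31727 in luminal tumor 1. The 8 markers of urothelial epithelium, such as Epcam and Krt5, were above 0 in each group, with sums of 241052 to 716770 per library. Y-linked genes summed to 404 in control 1, to 9030 to 9177 in the other 3 controls and to 338 to 395 in the mutants, so that this sum divides the 4-day libraries nearly as the genotype does.

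Of the 46 genes, 10 Mmp genes form a single cluster. On chromosome 9 of GRCm38.p6 it runs from 7272514 to 7699585 and holds, in order, Mmp13, Mmp12, Mmp1b, Mmp3, Mmp1a, Mmp10, Mmp8, Mmp27, Mmp20 and Mmp7. Promoter sequence from RefSeq (GRCm38.p6) was found for 32 of the 46 genes, with 35 start sites. The letters TGANTCA, bound by AP-1 factors such as Fos and Jun, were searched on both strands in the 250 bases before each start site. They occurred in 8 of the 35 windows, all of genes of the cluster (Mmp10, Mmp12, Mmp13, Mmp1a, Mmp1b, Mmp20, Mmp3 and Mmp7), and in 6.75% of the 32851 windows of that length over all genes. The DR1 element, the letters AGGTCA repeated with 1 base between, which Pparg binds with its partner Rxr, was searched likewise and occurred in 0 of the 35 windows and in 0.0335% of all windows, which says only that these letters are not in the windows searched. Windows are shown for the 4 cluster genes with the highest mean over the tumor libraries, on the plus strand and 5′ to 3′, with the AP-1 letters in capitals. They are Mmp13 at chr9:7272264-7272513, Mmp12 at the second of its start sites at chr9:7347124-7347373, Mmp10 at chr9:7502092-7502341 and Mmp7 at the first of its start sites at chr9:7691840-7692089. A match is a description of the letters and not a site of binding.
Mmp13: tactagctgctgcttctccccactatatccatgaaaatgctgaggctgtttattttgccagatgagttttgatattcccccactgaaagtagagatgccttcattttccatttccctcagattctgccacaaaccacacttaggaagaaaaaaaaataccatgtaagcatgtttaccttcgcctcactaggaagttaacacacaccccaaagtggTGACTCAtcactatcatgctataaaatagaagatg
Mmp12: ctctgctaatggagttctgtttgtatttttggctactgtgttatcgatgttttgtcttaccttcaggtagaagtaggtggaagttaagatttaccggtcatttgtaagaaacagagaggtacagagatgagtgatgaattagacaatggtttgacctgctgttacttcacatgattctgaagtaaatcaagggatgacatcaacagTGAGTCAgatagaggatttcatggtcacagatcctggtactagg
Mmp10: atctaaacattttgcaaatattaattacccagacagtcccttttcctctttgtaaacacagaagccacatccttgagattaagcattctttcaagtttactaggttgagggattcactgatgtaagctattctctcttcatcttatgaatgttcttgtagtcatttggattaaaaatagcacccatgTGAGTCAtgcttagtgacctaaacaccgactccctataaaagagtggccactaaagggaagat
Mmp7: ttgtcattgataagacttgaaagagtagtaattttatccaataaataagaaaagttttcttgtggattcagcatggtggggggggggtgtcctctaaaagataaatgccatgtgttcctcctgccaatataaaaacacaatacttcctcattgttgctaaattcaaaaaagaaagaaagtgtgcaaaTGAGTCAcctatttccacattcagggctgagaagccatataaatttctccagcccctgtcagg

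The first comparison asks which of these genes differed between sorted basal cells with and without active Pparg, 4 days after induction. Adamts19, a member of the ADAMTS family whose substrates are poorly known, rose in mutants. It was at 29.6, 8.32, 25.5 and 34.9 normalized counts in the 4 controls and at 156, 153, 228, 201 and 250.4 in the 5 mutants. Every mutant lay above every control, with a log2 fold change of 3.09 (SE 0.40, limma with Benjamini-Hochberg adjusted p = 0.00539). Fold changes are on the scale log2(normalized count + 1), which understates the change of low genes. Of the 35 genes with enough counts to be tested Adamts19 alone was called (adjusted p under 0.05), where 2.85% of all 16413 genes tested were called. Adamts19 passed the filter on low values through the mutants, being under 10 normalized counts in control 2, and of the 22 genes that reached 10 in all 9 libraries limma called 0 (3 at an unadjusted p under 0.05), where 2.72% of all such genes were called. Of the 35, 25 had a log2 fold change above 0, with a median of 0.55, where 50.5% of all genes tested did, with a median of 0.0045. At an unadjusted p under 0.05, 4 of the 35 were higher and 2 lower, where 1939 and 1479 of all 16413 were. Smooth muscle markers (6 of 6 tested above 0, median 1.75) and substrates (19 of 22 above 0, with 11 higher at an unadjusted p under 0.05) lay the same way, and so did 7 of 8 fibroblast markers tested (median 2.02). The part of such cells in the shift was not tested. Control 1, which is as low in Y-linked genes as the mutants, had 29.6 for Adamts19. A fit of that control alone beside the 5 mutants was chosen after the data were seen. Only the mutants give its spread, so it decides no call. In that fit the log2 fold change of Adamts19 was 2.67. In the study's smaller table of 3 controls and 3 mutants it was 3.32 with an adjusted p of 0.0513, and 0 of these genes were called (3 at an unadjusted p under 0.05). Over the other alternatives its adjusted p ran from 0.00314 to 0.0214.

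Collagenases were near 0 in the sorted cells. Mmp8 and Mmp13, which cleave fibrillar collagen, reached at most 5.07 and 5.76 normalized counts in any of the 9 libraries, Mmp1a was above 0 in control 2 alone, at 1.20, and Mmp1b was listed at 0 in all 9. Mmp1a and Mmp1b are related copies, and whether reads were split between them was not tested. The stromelysins Mmp3 and Mmp10 and the matrilysin Mmp7 were also too low to be tested, with highest values of 62.8, 4.91 and 74.1, each in a mutant.

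Timp2 had the highest level at 4 days. Per kilobase of exon, the scale on which levels of different genes are compared here, control means were 4319 normalized counts for Timp2, 834 for Mmp14, 486 for Timp1, 426 for Mmp23 and 417 for Mmp15. Mmp14 is the cell-surface enzyme that activates the precursor of Mmp2, and Timp2 takes part in that step. Mmp14 was at 5196, 5188, 4546 and 4945 in controls and at 8938, 5582, 7383, 5601 and 4741 in mutants, with a log2 fold change of 0.34 (SE 0.17, adjusted p = 0.291). Mmp15, another membrane-type enzyme, had a mean of 2250 ± 251 (SD, n = 4) in the control libraries against 2551 ± 578 (SD, n = 5) with the fusion, where limma gave a log2 fold change of 0.16 (adjusted p = 0.634). Both genes overlapped between the groups.

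Genes that fibroblasts are known to make spread widely inside both groups. The gelatinase Mmp2 was at 118, 152, 181 and 684 normalized counts in controls, and the mutants had 1585, 214, 2439, 1099 and 131 (log2 fold change 1.59, SE 0.90, adjusted p = 0.349). Control 4 was the highest control, and mutants 2 and 5 lay inside the range of the controls. Timp1, a soluble inhibitor induced by injury, was at 115, 252, 422 and 939 in controls and at 211, 133, 2014, 1251 and 704 in mutants (log2 fold change 0.74, SE 0.85, adjusted p = 0.661). Timp3, the inhibitor that stays bound to matrix, was at 333, 250.3, 413 and 841 in controls and at 957, 178, 1675, 1210.4 and 563 in mutants (0.80, SE 0.61, adjusted p = 0.491). In both inhibitors control 4 was the highest control, mutant 3 the highest mutant and mutant 2 the lowest. Timp2 lay between 12736 and 25181 in controls and between 9662 and 27034 in mutants, with a log2 fold change of 0.03 (SE 0.31, adjusted p = 0.961) that was -0.04 after quantile normalization. Timp4 did not exceed 17.8 and was not tested.

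Fibroblast markers were highest in mutant 3 and, among controls, in control 4, as were Mmp2, Timp1 and Timp3. The sum over 9 such markers, Col1a1 and Pdgfra among them, was 12112, 25420, 42696 and 85164 in controls. In mutants it was 84845, 30972, 218292, 129694 and 67325. Other libraries parted from this order. Mutant 1 was near control 4 in the sum but had 211 for Timp1, against 939 in control 4. Mutant 5 lay above controls 1 to 3 in the sum but had 131 for Mmp2, inside their range. None of the 9 markers was at 0 throughout a group. Of the 8 tested, Lum was called higher. The libraries came from a sort for Gfp-positive cells after Krt5-driven Cre. The part of such cells in the levels of Mmp2, Timp1 and Timp3 was not tested, and in bulk libraries fewer cells of a type and less RNA per cell cannot be told apart.

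Among ADAMTS genes the procollagen N-proteinases Adamts2 and Adamts3, which trim the ends of fibrillar procollagens, overlapped between groups. Adamts3 was at 3.15, 25.0, 4.39 and 39.5 normalized counts in controls and at 64.4, 22.0, 98.3, 172 and 96.7 in mutants (log2 fold change 2.62, SE 0.79, adjusted p = 0.1004). Mutant 2 was the one mutant inside the range of the controls. Adamts2 lay between 342 and 1746 in controls and between 599.9 and 2757 in mutants (0.87, adjusted p = 0.388). The proteoglycanases Adamts1 and Adamts15 had log2 fold changes of 0.72 (adjusted p = 0.453) and -0.34 (adjusted p = 0.449). Adamts10, which binds fibrillin, and Adamts17 had log2 fold changes of 0.26 (adjusted p = 0.607) and -0.89 (adjusted p = 0.212). Adamts18, named after its values were seen, was the other gene whose groups did not overlap, at 24.2 to 44.0 in controls and 11.7 to 23.9 in mutants (-0.85, adjusted p = 0.174), where 9.18% of all genes tested did not overlap. Mmp11, Mmp23 and Mmp28, which furin activates before they leave the cell, had log2 fold changes of -0.43, 0.66 and 0.16 (adjusted p = 0.538, 0.350 and 0.769). Mmp9, a gelatinase of leukocytes, did not exceed 35.8 (0.63, adjusted p = 0.650).

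**Figure D1:**
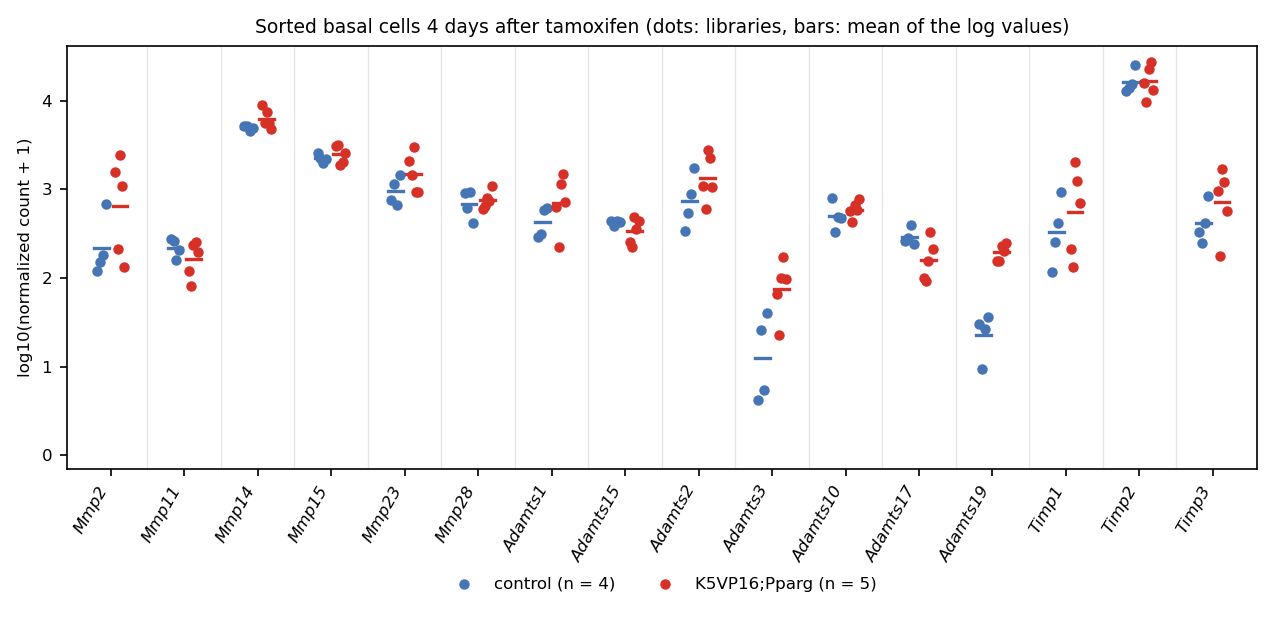
Normalized counts of 16 of the genes in sorted basal cells, as log10(normalized count + 1), with 1 dot per library (4 controls and 5 mutants) and a bar at the mean of the log values. Adamts19 is the gene in which all 5 mutants (153 to 250.4) lie above the 4 controls (8.32 to 34.9), while Mmp2, Timp1 and Timp3 spread widely inside both groups.

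The surrounding genes were read from lists of activators and other inhibitors, related proteases, substrates and inducing factors. Of 23 activators and other inhibitors tested at 4 days Plat, the tissue plasminogen activator, was called higher (log2 fold change 1.82, adjusted p = 0.0189). Of 22 substrates tested Fn1, the fibronectin gene, was called higher (3.67, adjusted p = 0.0189). Limma called none of 18 related ADAM, ADAMTS-like and astacin genes (5 at an unadjusted p under 0.05) and none of 13 AP-1 and ETS factors (5 at an unadjusted p under 0.05). At that threshold 1939 of all 16413 genes tested were higher and 1479 lower.

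The second comparison sets the luminal tumors of K5VP16;Pparg+/- mice against the basal tumors of mice labelled wild type. Of 26 genes tested 7 fell in luminal tumors and none rose, namely Mmp12, Mmp13, Adamts2, Adamts5, Adamts12, Adamts14 and Timp3, where 1.16% of all 14631 genes tested were called lower and 1.39% higher. The filter on low values bears on this count. In 14 of the 26 genes every basal tumor but not every luminal tumor reached 10 normalized counts. Of the 7 called only Mmp12 reached it in all 6 libraries. Of the 10 genes that reached it in all 6 libraries limma thus called 1, where 1.99% of all such genes were called. The count of 7 also rested on single libraries. Without basal tumor 1, luminal tumor 1 or luminal tumor 2 limma called 0 of these genes (13, 17 and 16 at an unadjusted p under 0.05). It called 4 without basal tumor 2, 2 without basal tumor 3 and 10 without luminal tumor 3. Calls over all genes likewise fell without luminal tumor 1 or 2 and rose without luminal tumor 3, as counted in the last section. Each of the 7 kept a log2 fold change below 0 in all 6 of these fits. At an unadjusted p under 0.05 the full fit had 1 of the 26 genes higher and 15 lower, where it had 1293 and 1416 of all 14631. The share over all genes at that threshold is not given here for the fits without 1 library.

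The metalloelastase Mmp12, which macrophages secrete and which cuts elastin, differed widely among basal tumors. It was at 17633, 557 and 5347 normalized counts in basal tumors and at 34.6, 41.1 and 23.1 in luminal tumors, with a log2 fold change of -6.83 (SE 1.175, adjusted p = 0.0281). Even the lowest basal tumor lay above every luminal tumor. Mmp12 (chromosome 9, 7344397 to 7360461) shares 157 bases of exon with Mmp1b on the other strand, which the library kit does not separate, and Mmp1b was listed at 0 in every tumor. Mmp13, the main interstitial collagenase of rodents, was at 1154, 99.5 and 2437 in basal tumors and at 10.4, 9.36 and 3.13 in luminal tumors (-6.38, SE 1.40, adjusted p = 0.0492). Basal tumor 2 was the lowest basal tumor in both genes. The 6 macrophage markers, such as Adgre1 and Csf1r, summed to 134210, 24101 and 24993 in basal tumors and to 9702, 653 and 3878 in luminal tumors, none at 0 throughout a group, and their part in the level of Mmp12 was not tested.

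Of the 4 Adamts genes that fell 2 are procollagen N-proteinases. Adamts12, which cleaves cartilage oligomeric matrix protein (chromosome 15, 11064773 to 11349232), was at 822, 437 and 462 normalized counts in basal tumors and at 1.16, 0 and 2.06 in luminal tumors (log2 fold change -8.20, SE 1.21, adjusted p = 0.0217). Adamts14, which trims procollagens, was at 52.6, 68.5 and 71.2 in basal tumors and listed at 0 in all 3 luminal tumors (adjusted p = 0.0341). In both genes the luminal tumors were at or near 0. Adamts2, also a procollagen N-proteinase, was at 724, 253 and 322 in basal tumors and at 10.2, 1.15 and 29.3 in luminal tumors (-5.44, SE 1.19, adjusted p = 0.0494). Adamts5, an aggrecanase that also cleaves versican, was at 65.5, 256 and 63.5 in basal tumors and at 1.16, 0 and 1.03 in luminal tumors (-5.98, SE 1.16, adjusted p = 0.0357). Neither gene overlapped between the groups.

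The 3 TIMP genes with enough counts were lower in each luminal tumor than in any basal tumor, and Timp3 was called. Timp3 was at 6925, 4176 and 1231 normalized counts in basal tumors and at 7.76, 7.87 and 191 in luminal tumors (log2 fold change -7.06, SE 1.24, adjusted p = 0.0305). It lies on chromosome 10 (86300412 to 86349505) and shares 1733 bases of exon with Syn3 on the other strand, whose reads cannot be told apart from its own. Timp1 was at 8777, 1389 and 6068 in basal tumors and at 22.9, 11.8 and 671 in luminal tumors (-6.15, SE 1.39, adjusted p = 0.0544). Timp2 was at 16885, 5609 and 6375 in basal tumors and at 1584, 3407 and 355 in luminal tumors (-2.76, SE 0.85, adjusted p = 0.128). Luminal tumor 3 held the highest Timp1 and Timp3 and the lowest Timp2 of the luminal tumors. Per kilobase of exon the basal tumor means were 6094 normalized counts for Timp1, 2470 for Timp2 and 505 for Timp3, and the luminal tumor means were 265, 457 and 8.45. Timp4 did not exceed 5.17.

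Mmp15 lay the other way. It was at 274, 1237 and 133 normalized counts in basal tumors and at 3978, 3947 and 1985 in luminal tumors (log2 fold change 3.14, SE 0.74, adjusted p = 0.0617). It was the one tested gene of the 46 with every luminal tumor above every basal tumor, where 14 lay the other way, and over all genes tested 10.3% were apart upward and 11.5% downward. Among the 10 genes that reached 10 normalized counts in all 6 libraries 4 were apart downward, where 8.74% of all such genes were. Without basal tumor 2 Mmp15 was called higher (4.04, adjusted p = 0.0172), as it was in 2 of the 10 settings of other kinds. Over all alternatives its adjusted p ran from 0.0172 to 0.205. Mmp14 was at 5277, 5278 and 5543 in basal tumors and at 3094, 1004 and 2663 in luminal tumors (-1.41, SE 0.57, adjusted p = 0.226). Its basal tumors lay close together, unlike those of Mmp12, Mmp13 and Mmp15.

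The gelatinases, the stromelysin Mmp10 and the matrilysin overlapped between the groups. Mmp2 was at 1497, 1377 and 241 normalized counts in basal tumors and at 20.5, 8.79 and 308 in luminal tumors (log2 fold change -4.30, SE 1.42, adjusted p = 0.149). Mmp9 was at 876, 135 and 1064 in basal tumors and at 5.56, 1.87 and 885 in luminal tumors (-4.30, SE 2.05, adjusted p = 0.303). In both genes luminal tumor 3 lay among the basal tumors, and without that library both were called lower (adjusted p = 0.0338 for Mmp2 and 0.0336 for Mmp9). Over the other fits with 1 library left out the adjusted p reached 0.357 for Mmp2 and 0.592 for Mmp9. The 6 neutrophil markers, such as S100a8, summed to 16723, 545 and 13895 in basal tumors and to 298, 1126 and 17263 in luminal tumors, high in the same 3 libraries as Mmp9, and their part in Mmp9 was not tested. Mmp10 ran from 25.9 to 1301 in basal tumors and from 29.1 to 70.5 in luminal tumors (-1.96, adjusted p = 0.613). Mmp7, the matrilysin that epithelia secrete, was at 19.2, 699.6 and 1069 in basal tumors and at 86540.5, 5112 and 274 in luminal tumors (4.32, SE 2.22, adjusted p = 0.342). Mmp11, grouped with the stromelysins and named after its values were seen, did not overlap, at 71.4, 94.0 and 38.1 in basal tumors and listed at 0 in all 3 luminal tumors (adjusted p = 0.0519). In luminal tumor 1 Mmp7 took up 86540.5 of the 97300.1 normalized counts of all 46 genes together.

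The remaining genes named by the same rule missed the threshold. The groups did not overlap in Mmp19 (log2 fold change -3.90, adjusted p = 0.126), Adamts4 (-5.51, adjusted p = 0.112) and Adamts6 (-2.78, adjusted p = 0.394). They overlapped in Mmp23 (-4.77, adjusted p = 0.201), Adamts1 (-1.96, adjusted p = 0.4403), Adamts10 (0.65, adjusted p = 0.808) and Adamts15 (1.81, adjusted p = 0.724). Adamts19, the gene called at 4 days, was listed at 0 in all 8 libraries of this table, as was Adamts3.

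**Figure D2:**
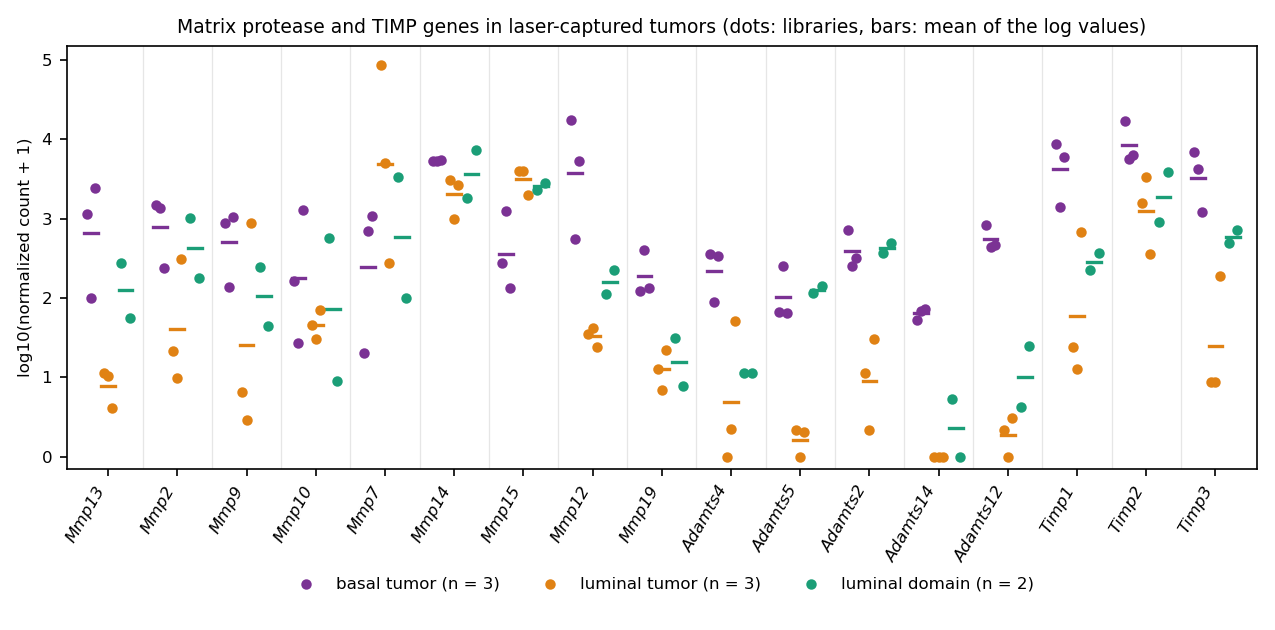
Normalized counts of 17 of the genes in laser-captured tumors, as log10(normalized count + 1), with 1 dot per library (3 basal tumors, 3 luminal tumors and 2 luminal domains) and a bar at the mean of the log values. The basal tumors lie above the luminal tumors in Mmp12, Mmp13, Adamts2, Adamts5, Adamts12, Adamts14 and Timp1 to Timp3, and below them in Mmp15.

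Stromal markers and matrix genes were lower in the same libraries. Fibroblast markers summed to 69802, 46996 and 63524 in basal tumors and to 838, 233 and 17189 in luminal tumors, and 4 of the 8 tested were called lower. Smooth muscle markers summed to 51207, 6010 and 48257 in basal tumors and to 240, 150 and 1254 in luminal tumors, where Des was at 0. The part of these cells in the lower Adamts, Mmp and Timp values was not tested. Of 22 substrates tested 8 were called lower and none higher, with Spp1, the osteopontin gene, at -6.77 and the collagen gene Col1a2 at -5.38 on the log2 scale. Of 22 activators and other inhibitors Serpinb2, an inhibitor of plasminogen activators (-5.66), and the cathepsin gene Ctsl (-4.36) were called lower, and Spint1, an inhibitor of epithelial serine proteases, higher (2.45). Of 15 related proteases Bmp1, the procollagen C-proteinase, was called lower (-3.36). Of 13 AP-1 and ETS factors Elf3, an epithelial ETS factor, was called higher (2.15) and no AP-1 gene was called.

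The third comparison sets the luminal domains against the same 3 basal tumors, in a table of their own. Because the basal tumors are shared, the values stand side by side with those above and are not independent of them. Of 30 genes tested Adamts12 and Timp1 fell and Adamts17 rose, where 0.824% of all 14921 genes tested were called lower and 1.7% higher. The filter on low values bears on this count too, since in 11 of the 30 genes, Adamts12 among them, every basal tumor but not every domain reached 10 normalized counts, and Adamts17 reached it in the domains alone. Among the 13 genes that reached it in all 6 libraries Timp1 alone was called, where 2.53% of all such genes were. Adamts12 was at 868, 453 and 482 normalized counts in basal tumors and at 3.50, 25.6 and 6.38 in luminal domains (log2 fold change -5.91, SE 1.06, adjusted p = 0.0372). Timp1 was at 9196, 1427 and 6286 in basal tumors and at 236, 397 and 478 in luminal domains (-3.61, SE 0.70, adjusted p = 0.0443). Adamts17, a relative of Adamts10, was at 1.41, 2.25 and 0.372 in basal tumors and at 118, 88.9 and 128 in luminal domains (5.66, SE 1.11, adjusted p = 0.0461). In these 3 genes the domains stood apart from every basal tumor. Without basal tumor 1 or any one of the 3 luminal domains limma called 0 of these genes (10 to 14 at an unadjusted p under 0.05). Without luminal domain 1 or 2 it also called 0 of all genes tested. Without basal tumor 3 it called Timp3 alone, and without basal tumor 2 it called Timp1, Mmp12 and Mmp15. Adamts12 and Adamts17 thus lost their call in all 6 of these fits and Timp1 in 5 of them. With the 2 luminal domains of the table of 8 limma called 0 (11 at an unadjusted p under 0.05). In the full fit 2 of the 30 genes were higher and 9 lower at an unadjusted p under 0.05, where 1662 and 1410 of all 14921 were.

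Adamts17 differed among the luminal tumors as well. In the table of 8 it was at 0, 3.67 and 136 normalized counts in the 3 luminal tumors and at 127 and 94.4 in the 2 luminal domains, so that luminal tumor 3 alone had the level of the domains. Its scale differed between tables of the same library, since luminal domain 1 was at 118 in the table with basal tumors alone and at 53.8 in the table with basal-like domains.

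Of the genes that were low in luminal tumors, some overlapped in luminal domains with the basal tumors and others did not. Adamts2 was at 387, 533 and 145 normalized counts in domains and at 759, 260.0 and 334 in basal tumors (log2 fold change -0.38, adjusted p = 0.813). Mmp13 was at 295, 60.5 and 276 in domains and at 1217, 103 and 2540.25 in basal tumors (-1.997, adjusted p = 0.412). Mmp2 was at 1275, 229 and 362 in domains and at 1848, 1666 and 295 in basal tumors (-1.03, adjusted p = 0.566). These 3 genes overlapped between the groups, as did Adamts5, at 121, 154 and 55.3 in domains and 69.1, 265 and 66.3 in basal tumors (-0.08, adjusted p = 0.973). Timp3 was at 489.7, 733 and 674 in domains and at 6819, 4032 and 1198 in basal tumors (-2.36, adjusted p = 0.0936). Timp2 was at 1016, 4365 and 4689 in domains and at 18340.4, 5973 and 6847 in basal tumors (-1.72, adjusted p = 0.199). Neither TIMP gene overlapped, and neither passed. Mmp15 was at 2499, 3095 and 2305 in domains and at 289, 1280 and 139 in basal tumors (2.81, SE 0.76, adjusted p = 0.0978), again apart upward.

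Further genes named by the rule gave log2 fold changes of -3.86 for Mmp12 (adjusted p = 0.134), -3.48 for Mmp9 (0.224), -3.47 for Mmp19 (0.134), -5.24 for Adamts14 (0.0744), -5.09 for Adamts4 (0.0792) and -2.76 for Adamts10 (0.258). Mmp7 (3.46), Mmp8 (1.99), Mmp3 (-1.40), Mmp10 (-0.51), Mmp14 (-0.51), Mmp23 (-1.65) and Adamts1 (0.38) overlapped between the groups. Of the 30 genes 2 were apart upward and 8 downward, where 14% and 12.8% of all genes tested were. Among the 13 genes that reached 10 normalized counts in all 6 libraries 1 was apart upward and 3 downward, which is 30.8%, where 28.2% of all such genes were apart. Fibroblast markers summed to 31848, 6116 and 5461 in luminal domains and to 73240, 48150 and 66243 in basal tumors, with 5 of the 8 tested at an unadjusted p under 0.05 and none called. Smooth muscle markers summed to 1911, 1430 and 1548 in luminal domains and to 57231, 6298 and 51004 in basal tumors, and Acta2, Cnn1 and Tagln were called lower of the 6 tested. Of 6 macrophage markers tested 3 were lower at an unadjusted p under 0.05 and none was called. The part of these cells in the values of the 46 genes was not tested. Of 21 substrates tested Fn1 was called lower (-4.24, adjusted p = 0.00932), and Bmp1 was called lower (-2.90) and Spint1 (2.83) and Elf3 (2.59) higher in their lists.

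**Figure D3:**
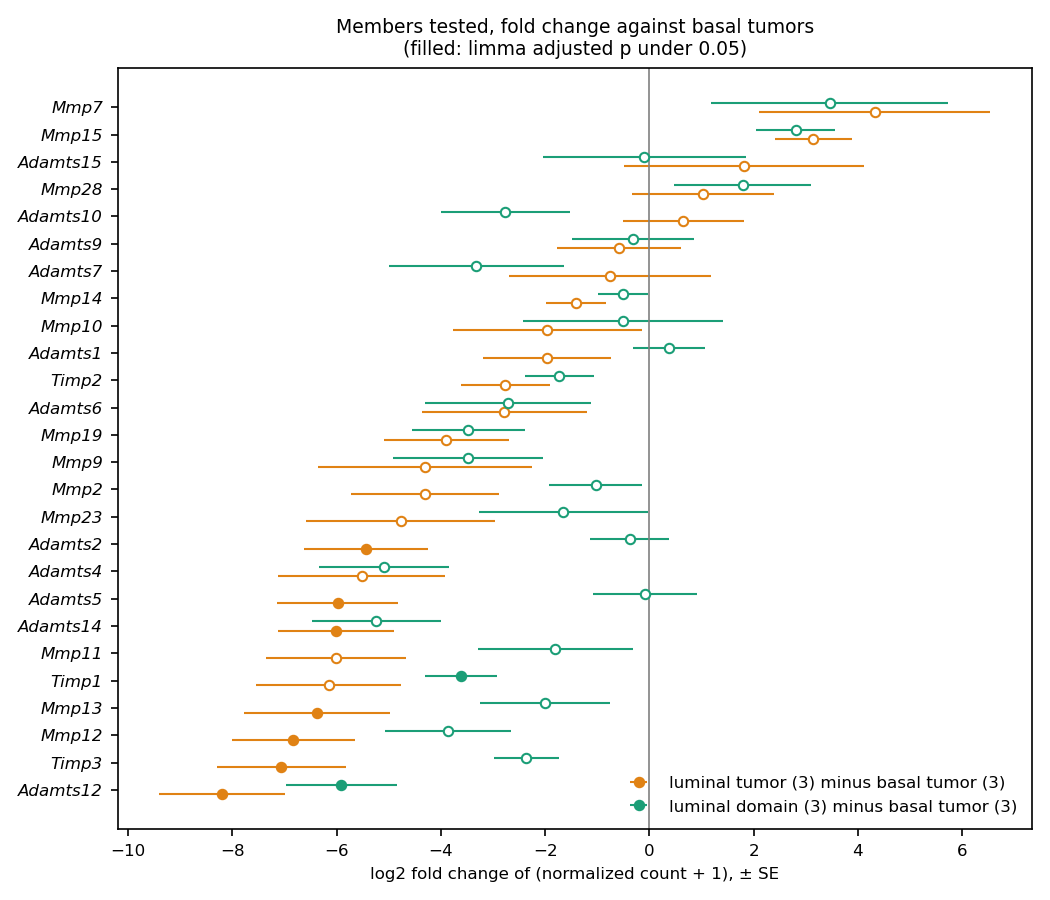
Log2 fold change of (normalized count + 1) with its standard error for the 26 genes tested between luminal and basal tumors, beside that of the luminal domains against the same basal tumors, with filled points where limma's adjusted p was under 0.05. Adamts12 is filled in both comparisons (-8.20 and -5.91), and Adamts2 and Adamts5 stand at -5.44 and -5.98 in luminal tumors and at -0.38 and -0.08 in luminal domains.

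Luminal tumors and luminal domains were set against each other within the table of 8, with 3 and 2 libraries. Limma called 0 of the 26 genes tested (6 at an unadjusted p under 0.05) and 0 of all 15001, a share of 0%, with 4.95% at an unadjusted p under 0.05. Adamts5 was at 113 and 141 normalized counts in domains and at 1.16, 0 and 1.03 in tumors (log2 fold change -6.28, adjusted p = 0.734). Adamts2 was at 364 and 495 in domains and at 10.2, 1.15 and 29.3 in tumors (-5.56, adjusted p = 0.930). Timp3 was at 490.1 and 724 in domains and at 7.76, 7.87 and 191 in tumors (-4.60, adjusted p = 0.964). In these 3 genes both domains lay above all 3 tumors without passing the test, as they did in Mmp12 (-2.28, adjusted p = 0.978) and Mmp13, so that 5 of the 26 were apart in that direction, where 10.9% of all genes tested were. Among the 9 genes that reached 10 normalized counts in all 5 libraries 1 was, or 11.1%, where 9.9% of all such genes were. Mmp13 (-3.99, adjusted p = 0.975) and Mmp23 (-5.11, adjusted p = 0.975) had lower values in tumors at an unadjusted p under 0.05, and Adamts10 (3.99, adjusted p = 0.964) had higher values. The fibroblast sums were 29812 and 5658 in the 2 domains and 838, 233 and 17189 in the 3 tumors. Endothelial markers were lower in tumors too, with 6 of 6 tested below 0 (median log2 fold change -3.59, 3 at an unadjusted p under 0.05). The part of these cells in the differences was not tested.

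The last comparison sets the basal-like domains against the luminal domains, both from mixed lesions by the study's account. Which top belongs with which bottom is not tied to columns by the labels, so the fit is unpaired. Limma called 0 of the 28 genes tested (1 at an unadjusted p under 0.05) and 0 of all 14874, a share of 0%, with 5.09% at an unadjusted p under 0.05. Adamts4, an aggrecanase induced by inflammatory cytokines, was the one gene of the 28 whose groups did not overlap, where 10.8% of all genes tested did not. It was at 11.1, 11.3 and 1.14 normalized counts in luminal domains and at 299.8, 32.3 and 319 in basal-like domains (log2 fold change 4.43, SE 1.36, adjusted p = 0.874). All 3 basal-like domains lay above the luminal domains, the second of them least. Adamts4 reached 10 normalized counts in every basal-like but not in every luminal domain, and of the 14 genes that reached it in all 6 libraries 0 were apart, where 10.9% of all such genes were. Leukocyte markers summed to 848, 1312 and 3432 in luminal domains and to 6454, 2870 and 6658 in basal-like domains, with Cd79a at 0 throughout and 2 of the 4 tested higher at an unadjusted p under 0.05, and their part in Adamts4 was not tested. Adamts4 lies on chromosome 1 (171250129 to 171262267). In the table of 8 Adamts4 was at 363, 87.3 and 337 in basal tumors and at 0, 1.23 and 50.1 in luminal tumors.

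The other genes overlapped between the domains. Timp1 was at 235, 399 and 480.1 normalized counts in luminal domains and at 1433, 695 and 476 in basal-like domains (log2 fold change 1.13, SE 0.56, adjusted p = 0.935). Mmp12 was at 106, 223 and 591 in luminal domains and at 1260, 428 and 404 in basal-like domains (1.32, adjusted p = 0.935). In both genes basal-like domain 1 was the highest library. Mmp2 was at 1437, 261 and 413 in luminal domains and at 5235, 787 and 768 in basal-like domains (1.45, adjusted p = 0.935). Fibroblast markers summed to 32889, 6388 and 5695 in luminal domains and to 105734, 17596 and 14518 in basal-like domains, highest in the same library as Mmp2, and their part in Mmp2 was not tested. Timp2 was at 1262, 5492 and 5895 in luminal domains and at 1993, 1748 and 2678 in basal-like domains (-0.71, adjusted p = 0.949). Timp3 was at 482, 731 and 672 in luminal domains and at 1053, 507 and 1034 in basal-like domains (0.41, adjusted p = 0.961). Mmp14 and Mmp15 had log2 fold changes of 0.11 (adjusted p = 0.990) and -0.26 (adjusted p = 0.971).

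Of the 28 genes tested 22 had a log2 fold change above 0, where 50.7% of all genes did, and 7 of the 28 reached 10 normalized counts in every basal-like but not in every luminal domain. Mmp7 ran from 109.8 to 58609 in luminal domains and from 351 to 29719 in basal-like domains (0.91, adjusted p = 0.986). Adamts1 (0.71), Adamts5 (0.30), Adamts6 (1.53), Adamts10 (1.32), Mmp8 (1.69), Mmp13 (0.78) and Mmp23 (1.12) had values above 0, and Adamts2 (-0.67), Mmp9 (-0.27) and Mmp10 (0.10) lay below or close to it. Limma called none of the activators and other inhibitors (2 of 23 at an unadjusted p under 0.05), related proteases (3 of 15), substrates (2 of 21) or AP-1 and ETS factors (0 of 13).

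**Figure D4:**
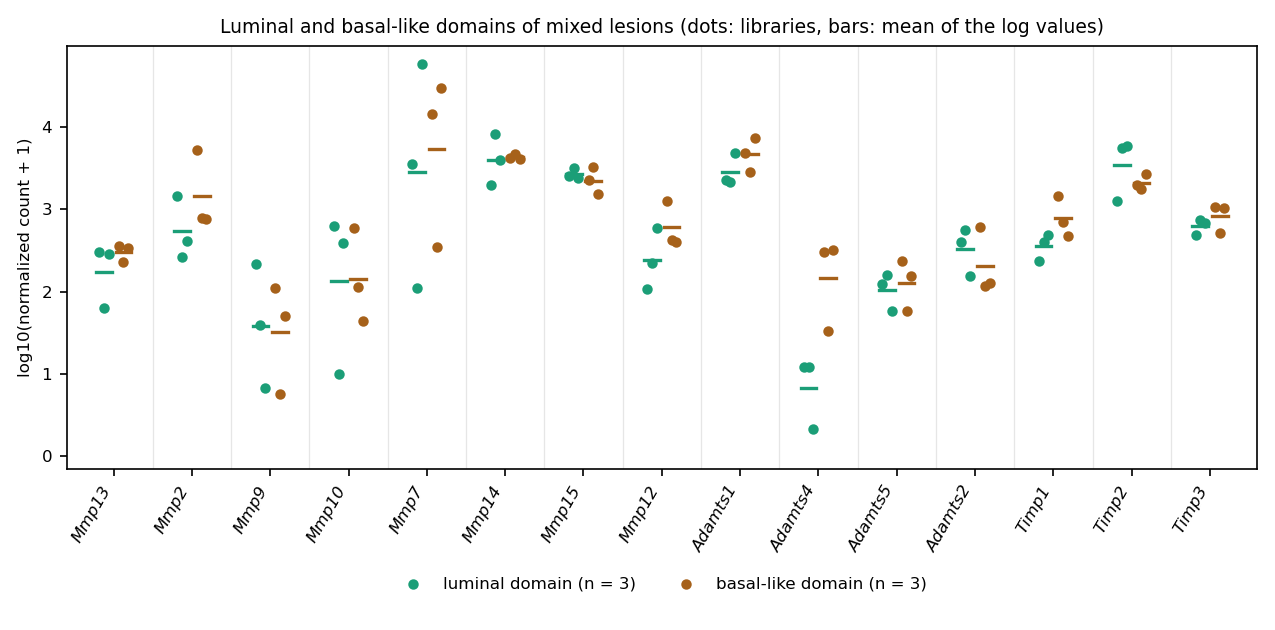
Normalized counts of 15 of the genes in luminal and basal-like domains, as log10(normalized count + 1), with 1 dot per library (3 in each group) and a bar at the mean of the log values. The groups are apart in Adamts4 (1.14 to 11.3 and 32.3 to 319) and overlap in the other 14 genes.

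Neighbours in the chromosome 9 cluster had different levels in the same library, compared here per kilobase of exon. Mmp7 had the highest level per kilobase of the cluster in every tumor and domain library but basal tumor 1. This order rests on the merged exon length, 7.24 kilobases for Mmp12 and 1.07 for Mmp7. In normalized counts Mmp12 lay above Mmp7 also in basal tumor 3 (5347 and 1069), luminal domain 2 and basal-like domain 2. In basal tumor 1 the level was 2436 normalized counts per kilobase for Mmp12, 432 for Mmp13, 95.3 for Mmp10, 70.5 for Mmp3, 21.5 for Mmp8 and 17.9 for Mmp7. In basal tumor 2 the level was 655 for Mmp7 and 77.0 for Mmp12. In basal tumor 3 it was 1001 for Mmp7, 912 for Mmp13, 756 for Mmp10 and 739 for Mmp12. In luminal tumors 1, 2 and 3 Mmp7 was at 81030.4, 4787 and 256 per kilobase. Mmp1a and Mmp1b, which lie between Mmp12 and Mmp10, were listed at 0 in every tumor and domain library. Mmp7, whose exons share 123 bases with AV064505 on the other strand, was at 3331, 103 and 54878 per kilobase in the luminal domains and at 13585, 329 and 27826 in the basal-like domains, so that libraries of one group differed widely. In normalized counts Mmp3 was above 100 in basal tumors 1 and 3 and in luminal domain 3, where it was at 436, and at 0 in basal tumor 2.

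**Figure D5:**
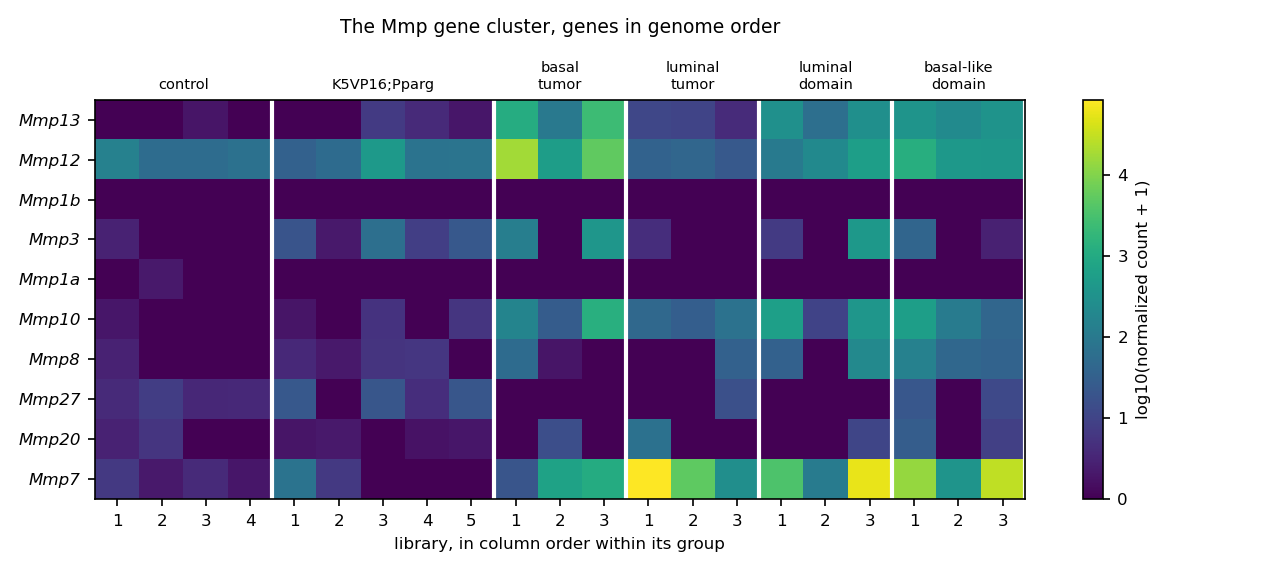
Heat map of log10(normalized count + 1) for the 10 genes of the chromosome 9 cluster in genome order (rows) and the libraries of 6 groups (columns), with 4-day, tumor and domain values from tables that were normalized separately. Mmp12 and Mmp13 are brightest in basal tumors 1 and 3 and dimmer in basal tumor 2 (557 and 99.5), Mmp7 is brightest in luminal tumor 1 and luminal domain 3, and Mmp1a and Mmp1b are dark in all but 1 control library.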

How the data were processed

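RNA came from Gfp-sorted basal urothelial cells and laser-captured bladder tumors. Per the labels and the study's methods, libraries were made with a SMART-Seq v4 and Nextera XT protocol, which does not mark strand, reads were demultiplexed with bcl2fastq 2.20 and quantified with kallisto 0.44.0, summed to genes with tximport and normalized with DESeq2 1.18. The processing notes name GRCm38 and GRCh38 without their roles. The values the authors deposited are a normalized signal per gene, here called normalized counts, in separate tables per comparison. Whole reads could not be recovered from them, so no count model was used. Members and gene lists were chosen with earlier results of these data known. In each table limma 3.58.1 (R 4.3.3, trend) was fitted to log2(normalized count + 1) over every gene with at least 10 normalized counts in as many libraries as the smaller group, with Benjamini-Hochberg adjustment over all genes tested and a threshold of 0.05. The 8 tumor libraries shared 1 fit of 3 groups. Levels per kilobase used merged exons of the GENCODE annotation of GRCm38. Genes were named when called, or when groups did not overlap and the higher mean was at least 100. Tested genes with the highest or next highest mean of their role were named too, and TIMP genes always. Alternatives changed the pseudocount, filter, variance model, weights, scaling and libraries. Another 8 columns with no label for their group were not used. Figures used Python 3.11.15 and matplotlib 3.10.9.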

Additional observations from a re-analysis of the deposited data

Results flagged for a closer look

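Mmp2 in the fourth control library at 4 days stood far from the other controls. It was at 684.127 normalized counts, where the other 3 controls lay between 118 and 181, and the gap to the nearest of them was 0.889 of the range of the group. In all, 34 groups of 4 or 5 libraries were examined over 17 genes and this was the 1 that stood out, where chance singles out about 1 in 20 groups. The same library had the highest fibroblast marker sum of the controls (85164), and the part of these cells in the Mmp2 value was not tested.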

How the results depend on the processing

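Depth in reads is unknown, and low genes depend most on the pseudocount and filter. No paired analysis was possible because the columns carry no replicate numbers. The fit to the 4-day libraries low in Y-linked genes was chosen after the data were seen. It holds 1 control, so only the mutants give its spread and its counts of calls decide nothing. Across the other settings 837 values of single genes kept their direction and side of the threshold, 41 lost their call, 4 gained one and 12 changed sign, and with 1 library left out 533 kept both, 48 lost a call, 8 gained one and 39 changed sign. The cause of these changes was not tested.

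At 4 days 1 gene was called, 2 with array weights (Adamts4 the other), 0 in the table of 3 and 3 libraries, 0 in the libraries low in Y-linked genes, and 1 to 2 with 1 library left out (2 without mutant 2). Between luminal and basal tumors 7 were called, 1 without a filter, 3 with a minimum of 50, 3 without the trend, 3 after quantile normalization, 2 with the 6 tumors alone, 4 with luminal tumors and domains joined, and 0 to 10 with 1 library left out. Over the 10 other settings the count ran from 1 to 9. Mmp15 and Timp1, not called in the reported fit, were each called in 2 of these 10. Adamts12 kept its call in 9 of the 10 other settings and in 3 of the 6 fits without 1 library, Mmp12 in 9 and 2, Timp3 in 6 and 2, Adamts14 in 6 and 1, Adamts5 in 5 and 1, and Adamts2 and Mmp13 in 3 and 1. Between luminal domains and basal tumors 3 were called, 0 without a filter, 0 in the table of 8, and 0 to 3 with 1 library left out. In both other comparisons limma called 0 under every setting run.

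Over all genes tested, the calls at 4 days were 290 higher and 177 lower, and 270 and 287 after quantile normalization. In luminal domains they were 254 and 123, and 179 and 134 after upper-quartile scaling, which moved the median of all genes from 0.01 to -0.14 (log2). Calls over all genes ranged at 4 days from 8 (libraries low in Y-linked genes) to 1054 (array weights) around 467, between luminal and basal tumors from 3 (without luminal tumor 1 or 2) to 863 (without luminal tumor 3) around 372, and for luminal domains from 0 (without luminal domain 1 or 2) to 467 (without basal tumor 2) around 377. Without the trend 20 genes were called between domains and 12 between luminal tumors and luminal domains (70 without luminal domain 2), none of them of the 46.

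Log2 fold changes that changed sign were, in the 4-day libraries low in Y-linked genes, Adamts10 (-0.42), Mmp15 (-0.052) and Mmp28 (-0.25). Timp2 at 4 days was at -0.041 after quantile normalization and at -0.30 in the table of 3 and 3. With luminal tumors and domains joined Adamts10 was at -0.95. With the luminal domains of the table of 8 Adamts1 was at -0.050, Adamts2 at 0.12 and Mmp23 at 0.34. Between domains Mmp10 was at -0.012 with a pseudocount of 5 and at -0.075 after quantile normalization, and between luminal tumors and luminal domains at 0.16 after quantile normalization. With 1 library left out, values ran at 4 days from -0.077 to 0.31 for Mmp28 and from -0.14 to 0.25 for Timp2, and between luminal and basal tumors from -0.20 to 3.45 for Adamts15. For luminal domains against basal tumors they ran from -0.33 to 1.095 for Adamts1, from -0.77 to 0.17 for Adamts2, from -1.88 to 1.37 for Mmp10, from -2.89 to 0.39 for Mmp23 and from -4.02 to 0.52 for Mmp3. Between domains they ran from -0.14 to 0.87 for Adamts5, from -0.15 to 2.88 for Adamts6, from -1.78 to 1.21 for Mmp10, from -0.40 to 0.62 for Mmp14, from -0.53 to 0.018 for Mmp15, from -0.92 to 2.35 for Mmp23, from -1.44 to 3.09 for Mmp7, from -0.44 to 3.41 for Mmp8 and from -1.53 to 0.96 for Mmp9. Between luminal tumors and luminal domains they ran from -0.45 to 4.29 for Adamts15, from -3.65 to 2.35 for Mmp10, from -1.87 to 0.14 for Mmp14, from -1.08 to 0.21 for Mmp28, from -3.28 to 1.70 for Mmp8 and from -1.65 to 0.43 for Timp2.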
